A study of Mus musculus with 2 samples.

Results

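The collagen genes of the mouse were described by the open chromatin at their starts and along their bodies in the newborn stomach. They were taken from the GENCODE M21 annotation as every protein-coding gene whose symbol is Col, a number, the letter a and a number, which gave 44 of 21911 protein-coding genes. By the structures their products form, 11 are fibrillar, 6 are the type IV genes of basement membranes, 4 belong to the basement membrane zone, 6 to beaded filaments, 9 are fibril-associated, 3 are short chain, 3 are transmembrane and 2 were placed in no class. The rule reads symbols alone and no measured value, although the family itself was picked with earlier results of these data known.

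Accessibility was measured by DNase-seq. DNase I cuts DNA that is not covered by nucleosomes or other proteins, and the cut ends are sequenced. The only group is whole stomach of B6NCrl mice at postnatal day 0, untreated and with no allele named, as 2 biological replicates of 1 library each. Both carry the same donor label, the sex was not collected, and whether they came from separate animals is not given in the sources used here, so differences between them may be technical. A single group allows no test between conditions, and the values below are descriptions of these 2 libraries.

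Collagens are the main structural proteins of the extracellular matrix, and each molecule is wound from a set of alpha chains that are encoded by separate genes. Fibrillar collagens such as types I, III and V form the banded fibrils of the connective tissue beneath the gastric epithelium and between its muscle layers, and type IV chains form the sheet under epithelium, around smooth muscle cells and around vessels. Most chains are made by fibroblasts, smooth muscle and endothelium, while cartilage has its own set, led by types II, IX and XI. A promoter or enhancer that is in use is usually visible as a site cut by DNase I, but an open site need not mean that the gene is transcribed.

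Replicate 1 held 139374 peaks and replicate 2 held 152779 on the autosomes, X and Y. A peak is about 150 bp wide and carries a whole-number signal, with a median of 44 in replicate 1 and 52 in replicate 2, so signals were read as percentiles within their own replicate. Peaks found in both replicates with an overlap of 1 bp or more were merged, which gave 105606 shared regions. A promoter was called open where a shared region reached within 1 kb of any annotated start of the gene. All 11 markers of gastric epithelium had an open promoter, as had 5 of 6 of smooth muscle, 6 of 10 of fibroblasts and mesenchyme, 2 of 5 of endothelium, 3 of 8 of cartilage and bone, 1 of 4 of skeletal muscle and 0 of 4 of liver. Over all protein-coding genes the share was 66.4%. In whole tissue, fewer cells with an open site and less opening per cell cannot be told apart.

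The regions below carry the results that follow and are shown for the strings they hold. They are written 5′ to 3′ on the strand of the gene, from the mm10 genome, with every match of the searched strings, on either strand, in capitals. The first 4 lie at starts of fibrillar or transmembrane collagens. The Col1a1 promoter is cut off after the first 6 bases of the annotated gene, and its capitals mark a pair of reversed CCAAT boxes and a TATA box that begins at the first annotated base. Those in Col5a1 and in intron 1 of Col1a1 mark the GC box GGGCGG on either strand. The Col23a1 promoter held none of the strings.
Col1a1 promoter, chr11:94936116-94936229, plus strand: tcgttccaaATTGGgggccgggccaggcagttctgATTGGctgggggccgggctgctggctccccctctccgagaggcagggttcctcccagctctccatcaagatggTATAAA
Col1a1 intron 1, chr11:94937116-94937265, plus strand: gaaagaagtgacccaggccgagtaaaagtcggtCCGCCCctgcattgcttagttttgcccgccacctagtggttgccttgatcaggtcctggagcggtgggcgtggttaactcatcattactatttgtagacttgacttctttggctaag
Col5a1 promoter, chr2:27886256-27886405, plus strand: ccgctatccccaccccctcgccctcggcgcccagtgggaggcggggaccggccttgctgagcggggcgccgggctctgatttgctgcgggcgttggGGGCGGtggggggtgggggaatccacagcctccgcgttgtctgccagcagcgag
Col23a1 promoter, chr11:51289556-51289745, plus strand: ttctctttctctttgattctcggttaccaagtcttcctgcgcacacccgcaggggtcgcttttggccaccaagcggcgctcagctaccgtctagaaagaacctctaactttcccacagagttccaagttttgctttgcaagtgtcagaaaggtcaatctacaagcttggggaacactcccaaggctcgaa
The strongest region near any collagen start is in Col28a1, and the next 6 are the strongest distal regions, away from the starts of all genes. Capitals mark AP-1 (TGANTCA) in Col28a1, Col6a3 and Col15a1, the GATA factor string AGATAA in Col23a1 and Col6a3, SOX (ACAAAGG) in Col5a3 and Col6a3, FOX (TGTTTAC) in Col5a3, the E-box CAGCTG in Col5a3 and Col2a1, NFI (TTGGCA) in Col15a1 and a CTCF core (AGGGGGCGC, reversed) in Col23a1. They also mark a pair of reversed GC boxes upstream of Col1a1 and a pair of reversed CCAAT boxes in Col2a1.
Col28a1 intron 27, chr6:8023696-8023845, minus strand: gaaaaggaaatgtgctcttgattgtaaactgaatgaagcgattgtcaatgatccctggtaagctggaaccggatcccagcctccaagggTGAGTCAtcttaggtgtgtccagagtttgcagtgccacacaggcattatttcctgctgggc
Col1a1 upstream, chr11:94928916-94929085, plus strand: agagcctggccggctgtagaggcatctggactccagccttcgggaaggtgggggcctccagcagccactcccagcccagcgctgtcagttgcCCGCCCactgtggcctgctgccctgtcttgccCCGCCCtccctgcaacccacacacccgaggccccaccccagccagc
Col23a1 intron 5, chr11:51539756-51539905, plus strand: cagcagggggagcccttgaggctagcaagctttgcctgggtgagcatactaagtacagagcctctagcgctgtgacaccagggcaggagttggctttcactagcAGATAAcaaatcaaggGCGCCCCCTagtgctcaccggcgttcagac
Col5a3 intron 8, chr9:20804416-20804565, minus strand: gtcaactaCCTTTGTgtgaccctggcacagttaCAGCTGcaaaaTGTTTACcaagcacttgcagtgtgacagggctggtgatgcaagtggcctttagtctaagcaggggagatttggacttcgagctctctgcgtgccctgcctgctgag
Col6a3 intron 39, chr1:90769436-90769605, minus strand: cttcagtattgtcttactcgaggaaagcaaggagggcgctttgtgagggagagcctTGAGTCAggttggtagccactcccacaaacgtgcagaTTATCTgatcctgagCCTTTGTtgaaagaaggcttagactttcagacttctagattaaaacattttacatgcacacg
Col15a1 intron 28, chr4:47293956-47294105, plus strand: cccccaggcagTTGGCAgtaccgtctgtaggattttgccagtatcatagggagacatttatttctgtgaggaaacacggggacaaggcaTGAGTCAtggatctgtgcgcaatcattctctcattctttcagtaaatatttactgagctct
Col2a1 intron 16, chr15:97993016-97993185, minus strand: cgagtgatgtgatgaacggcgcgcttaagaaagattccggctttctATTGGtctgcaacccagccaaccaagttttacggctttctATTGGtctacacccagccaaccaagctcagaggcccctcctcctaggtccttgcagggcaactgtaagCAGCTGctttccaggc

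With peaks of both replicates, all annotated starts and no regard to gene length, collagen promoters were open about as often as those of all protein-coding genes. Where open they had lower signals. An open promoter was found at 29 of 44 collagen genes, or 65.9% (95% Wilson interval 51.1 to 78.1%), beside 66.4% of all protein-coding genes. That likeness depended on the peaks used: with only the stronger 50% of peaks 11 of 44 were open, beside 59.2% of all genes, and without replicate 1 37 of 44 were, beside 69.4%. It did not hold among genes of like length, in 4 equal bins by gene body with 10 kb on either side. In the longest bin 21 of 30 collagens were open, beside 84.3% of all genes. In the next 6 of 10 were, beside 77.6%, and in the second shortest 2 of 4, beside 63.0%. The shortest bin held no collagen. The strongest shared region at the 29 open collagen promoters had a median signal of 42 in replicate 1 and 51 in replicate 2, at percentiles 47.2 and 47.8 of the peak lists. Over the 14558 open promoters of all protein-coding genes the medians were 89 and 100, at percentiles 91.9 and 93.0. Of the 29 collagens, 16 (55.2%) had a strongest promoter region at or above the 50th percentile as a mean of both replicates, beside 91.0% of all open genes. Only Col28a1 (3.45% of the 29) was at or above the 90th, beside 58.6% of all open genes. The interval covers counting error alone, and genes are not independent replicates.

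**Figure D1:**
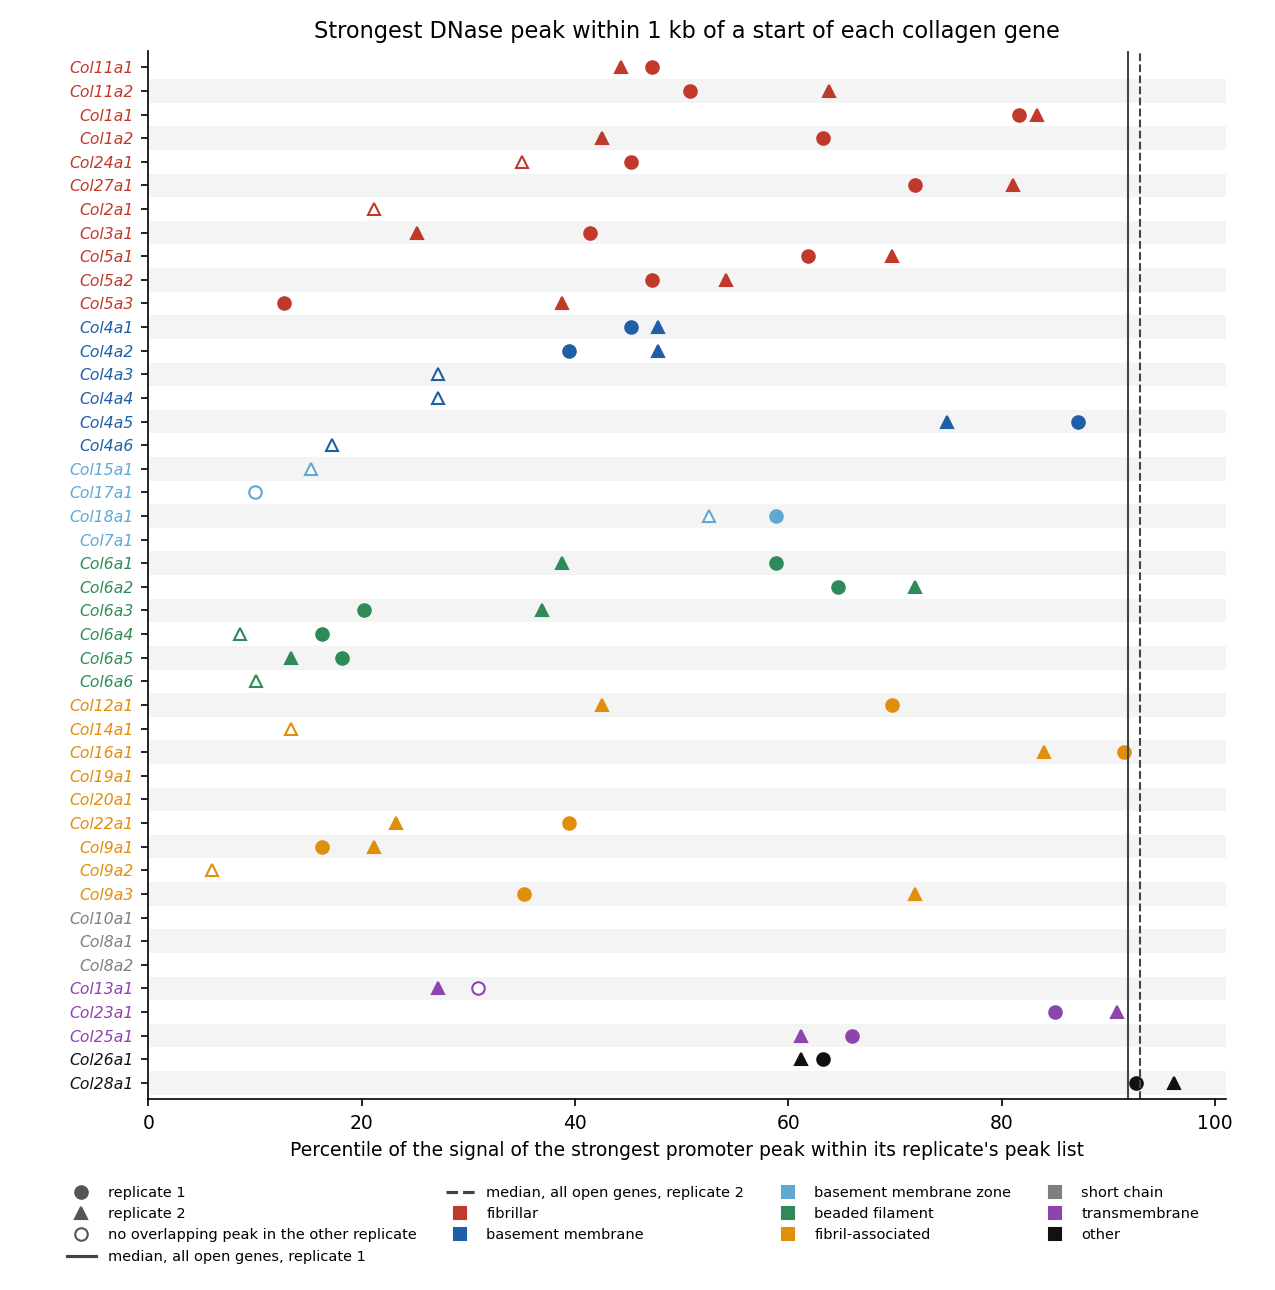
Percentile of the strongest DNase peak within 1 kb of a start (x axis, percent of the replicate's peak list) for each of the 44 collagen genes (rows, coloured by class). Circles are replicate 1, triangles replicate 2, open symbols are peaks that no peak of the other replicate overlaps, and rows with no symbol have no promoter peak. The vertical lines are the medians of all open genes, 91.9 and 93.0, and only Col28a1 has each symbol to the right of the line of its own replicate.

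Among the fibrillar genes, 10 of 11 had an open promoter, and in each of these 10 a shared region also lay within 1 kb of the gene's own 5′ end. Col1a1 (chr11:94936224-94953042) and Col1a2 (chr6:4504814-4541544) encode the chains of type I collagen, the main fibril of connective tissue. At Col1a1 the region over the 5′ end had signals of 43 and 63 in replicates 1 and 2. A stronger region, with 70 and 82, was centred 967 bp into the gene in intron 1, and another in intron 6 had 56 and 75. The strongest region of Col1a2, centred 777 bp into the gene, had 52 and 48. At Col3a1, which encodes the chain of type III collagen found with type I in soft tissue, the single promoter region had 39 in both replicates, at percentiles 41.4 and 25.2. Both replicates thus ranked the intron 1 region of Col1a1 above the strongest promoter regions of Col1a2 and Col3a1. The region over the Col1a1 5′ end was below that of Col1a2 in replicate 1 and above it in replicate 2. The strongest promoter regions of Col1a2, Col3a1 and Col5a1 also lie within 1 kb of a start of Gm43921, Gm47302 and 2810430I11Rik, respectively, and which gene they serve cannot be told apart.

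Types V and XI start and limit the growth of fibrils. Col5a1 had 5 shared promoter regions, between 764 bp upstream and 916 bp downstream of its 5′ end, a number reached by 4.62% of all genes. Their strongest had signals of 44 and 64. Col5a2 had 1 promoter region with 42 and 55, and Col5a3 had 1 with 25 and 46, the widest gap in rank between replicates of the 10 open fibrillar genes (percentiles 12.7 and 38.8). Col11a1 had 42 and 49 and Col11a2 had 40 and 62. The other fibrillar chains also had open promoters, with 59 and 79 at Col27a1 and 41 and 41 at Col24a1. Over all 44 collagens, 12 had 2 or more promoter regions, a smaller share than the 44.2% of all genes. Among the 11 fibrillar genes 6 had them, a larger share. Fibrillar genes had a median of 6 annotated starts, beside 3 over all genes.

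Col2a1, the fibril chain of cartilage, was the 1 fibrillar gene without an open promoter. Replicate 2 had weak peaks of 20 and 37 near internal starts and replicate 1 had none. The region in its intron 16 was nevertheless found in both replicates, with 67 and 99, at percentiles 79.4 and 92.6. Other cartilage collagens were mixed. Col11a1 and Col11a2 were open, with the values given above. Col9a3 was open with 36 and 69, Col9a1 had only a region near an internal start with 27 and 37, Col9a2 had peaks of 28 and 27 in replicate 2 alone, and Col10a1, the chain of hypertrophic cartilage, had no promoter peak. Of the cartilage and bone markers Acan, Matn1, Sp7, Ibsp and Bglap had no promoter peak, while Comp (36 and 46), Hapln1 (71 and 68) and Runx2 (51 and 64) were open. The part of cartilage cells in the Col2a1, type IX and type XI values was not tested.

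The type IV genes lie as head-to-head pairs that share the stretch between their starts, and the pairs differed. The 5′ ends of Col4a1 and Col4a2, which encode the chains found in all basement membranes, are 21 bp apart, and the genes overlap there. The same 2 shared regions lay in both promoters. One spans both 5′ ends (chr8:11312756-11312905) with signals of 38 and 51, and the other has 35 and 48. A further Col4a1 region near an internal start 33135 bp into the gene had 41 in replicate 1 and 45 in replicate 2. The 5′ ends of Col4a3 and Col4a4, whose chains are typical of mature kidney and lung, are 72 bp apart. A single peak with a signal of 40 lay there in replicate 2 (chr1:82586776-82586925) and none in replicate 1.

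Col4a5 and Col4a6, the X-linked pair, start 1309 bp apart. The region over the Col4a5 start had 79 and 72, at percentiles 87.2 and 74.9, the highest of the 6 type IV genes in both replicates. Col4a6 had only a replicate 2 peak of 35, centred 1015 bp upstream of its start and 294 bp upstream of that of Col4a5, so it counts in both promoters. By peaks of both replicates 3 of 6 type IV genes were therefore open, and in replicate 2 alone all 6 had a promoter peak. Peaks of replicate 2 alone were found at 8 of the 44 collagen promoters, beside 2.58% of all protein-coding genes, and peaks of replicate 1 alone at 1, Col17a1, beside 1.45%.

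Of the 4 basement membrane zone genes 1 was open. Col18a1, whose product carries endostatin at its end, was open with 49 and 53. Col15a1 had a promoter peak of 34 in replicate 2 only. Col17a1, a hemidesmosome component of squamous epithelium, had 1 of 23 in replicate 1 only, near an internal start. Col7a1, which forms the anchoring fibrils of stratified epithelium, had none in either replicate. The strongest region in the Col7a1 locus, with 123 and 132, lay within 1 kb of starts of the neighbouring Pfkfb4 and Gm38004 and not of Col7a1.

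Of the beaded filament genes, whose type VI product lies around cells, 5 of 6 were open. Col6a2 (53 and 69) was the strongest in both replicates, and its partners Col6a1 (49 and 46) and Col6a3 (29 and 45) were close to each other in replicate 2 but not in replicate 1. Col6a5 had 28 and 33 and Col6a4 had 27 and 27, the latter at an internal start. Col6a6 had 1 promoter peak, of 31, in replicate 2 only. The class median was 29 and 45, the lowest of the classes with an open promoter in both replicates.

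Fibril-associated collagens sit on the surface of fibrils and link them to other matrix. Open promoters were found at 5 of 9, and Col16a1, with 88 and 83, was the strongest of them in both replicates. Its region is also within 1 kb of a start of Gm12963. Col12a1 had 57 and 48 and Col22a1 had 38 in both. Col14a1 had a peak of 33 in replicate 2 only, while Col19a1 and Col20a1 had none. The short chain genes Col8a1, Col8a2 and Col10a1 were without a promoter peak in either replicate, and with Col7a1, Col19a1 and Col20a1 they make 6 of 44 with none, beside 29.2% of all genes.

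All 3 transmembrane collagens were open. Col23a1 had 3 promoter regions, the strongest with 75 and 95 at percentiles 85.0 and 90.8. Col25a1 (54 and 60) was open only 49240 bp from its 5′ end, at its 1 start of a protein-coding transcript. Col13a1 (33 and 40) was open only at an internal start that is not one of a protein-coding transcript. The same held for Col26a1 (52 and 60), Col28a1, Col9a1 and Col6a4. The Col28a1 region, with 91 and 109 at percentiles 92.6 and 96.2, is in intron 27, 168846 bp from the gene's 5′ end and centred 1005 bp from an internal start, so it counts as a promoter region only by its edge. At the annotated 5′ end of the gene, 23 of 44 collagens had a shared region, beside 61.6% of all genes. By hotspots, the wider intervals of enriched cutting, 30 of 44 had one that both replicates shared near a start, beside 66.8%.

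**Figure D2:**
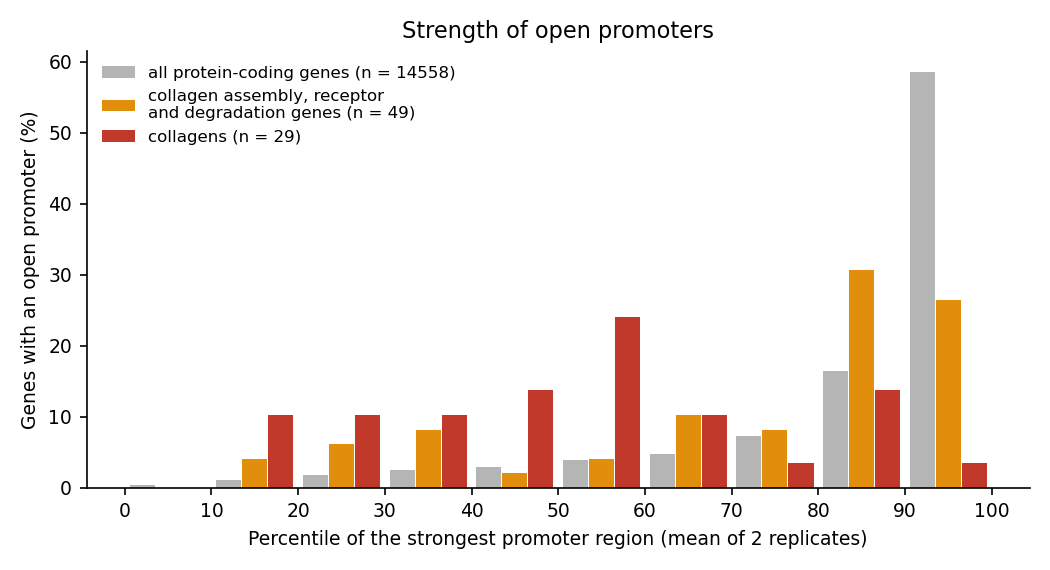
Share of genes with an open promoter (y axis, percent) by the percentile of the strongest promoter region (x axis, mean of both replicates, in steps of 10) for 14558 protein-coding genes, 49 collagen assembly, receptor and degradation genes and 29 collagens. All genes pile up above 90 (58.6%), the assembly genes at 80 and above, and the collagens are spread from 10 upwards with 3.45% above 90.

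Of 59 genes listed for the modification, secretion, cross-linking, binding and degradation of collagen 49 had an open promoter, beside 66.4% of all protein-coding genes. Their median signals were 73 and 80 (percentiles 83.7 and 81.9), below the 89 and 100 (91.9 and 93.0) of all open genes. The medians of the 49 are above those of the collagens. The fibril-binding genes were an exception in replicate 2, where their median of 44 (percentile 35.0) was below the 51 (47.8) of the collagens. Prolyl hydroxylation had all 10 genes open with medians of 88 and 91, among them Crtap (79 and 81), P3h1 (100 and 116) and P3h2 (74 and 78). All 5 genes of lysyl hydroxylation and glycosylation were open (75 and 89), with Colgalt1 at 133 and 124, Colgalt2 at 31 and 52 and Plod1 at 75 and 89. All 7 chaperone and secretion genes were open too (87 and 92), such as Creb3l1 with 86 and 92, Fkbp10 with 82 and 80 and Fkbp14 with 89 and 102. Serpinh1, the chaperone that binds procollagen, had 74 and 75 and was named for its role after its values had been seen. These 3 roles act inside the cell that makes the chain.

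The roles outside the cell were lower. Propeptide removal had 8 of 10 open with medians of 49 and 59, such as Adamts2 (74 and 86), Adamts14 (31 and 40) and Adamts3 (53 and 58), without Mep1a and with Mep1b in replicate 2 only. Cross-linking had 4 of 5 open (51 and 57), with Lox at 48 and 63, Loxl1 at 54 and 51, Loxl3 at 62 and 82, and no Loxl2 promoter peak. The fibril-binding proteoglycans and glycoproteins had 5 of 8 open (52 and 44). Bgn had 32 and 41, Dcn 37 and 38 and Fn1 57 and 73, while Fmod, Lum and Tnxb had no promoter peak. Among the receptors 6 of 7 were open (71 and 73.5), with Ddr1, made by epithelium, at 114 and 115, Ddr2, typical of mesenchyme, at 25 and 36 and Itga1 at 83 and 86. Itga11 had a peak in replicate 2 only. For degradation 4 of 7 were open (64 and 72.5), with Mmp14 at 69 and 77, Mmp2 at 73 and 89 and Mmp9 at 59 and 68. Mmp8 and Mmp13 had no promoter peak and Ctsk had one in replicate 2 only.

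The median signals of stromal markers were below those of epithelial markers, with overlap between the lists. The 11 gastric epithelial markers had medians of 73 and 82, beside 62 and 70 for the 6 open fibroblast and mesenchyme markers, 49 and 70 for the 5 open smooth muscle markers and 56.5 and 59 for the 2 open endothelial ones. Among the fibroblast markers, Fbln1 (85 and 92) and Pdgfra (80 and 93) were above the epithelial medians, Vim had 69 and 70, and Lum and Twist1 had no promoter peak. The part of the share of stromal cells in the low collagen signals was not tested.

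The CpG content of the promoter, which goes with broad opening in many tissues, was alike in open and other collagens. The observed-to-expected CpG ratio in the 1 kb around the 5′ end had a median of 0.417 at the 29 open and 0.459 at the other 15 collagens, beside 0.697 at open and 0.179 at other promoters of all protein-coding genes. All genes were ranked by this ratio and divided into 4 bins of equal size. In the lowest bin 19.8% were open, and 6 of the 7 collagens there were: Col1a2, Col22a1, Col28a1, Col3a1, Col6a1 and Col9a1, but not Col20a1. Those of Col28a1 and Col9a1 are at internal starts, so 4 of the 7 were open at the 5′ end, where the ratio was measured. In the second bin 58.8% of genes and 15 of 25 collagens were open, of which Col25a1 and Col6a4 were not open at the 5′ end. In the third these were 90.6% and 4 of 8, without Col15a1, Col19a1, Col2a1 and Col8a2. Of the open collagens in the third bin, Col13a1 and Col26a1 were not open at the 5′ end. In the highest bin they were 96.6% and all 4 collagens, Col23a1, Col4a1, Col4a2 and Col5a1. Within each of the 4 bins the median percentile of the open collagens, 41.1, 53.5, 59.2 and 51.0 from lowest to highest, was below that of all open genes, 78.4, 84.4, 93.5 and 95.2. The shares and percentiles of every bin count regions near any annotated start, while the ratio is that of the 5′ end. Few collagens stand behind each value, and the bins were set after the promoter values had been seen.

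**Figure D3:**
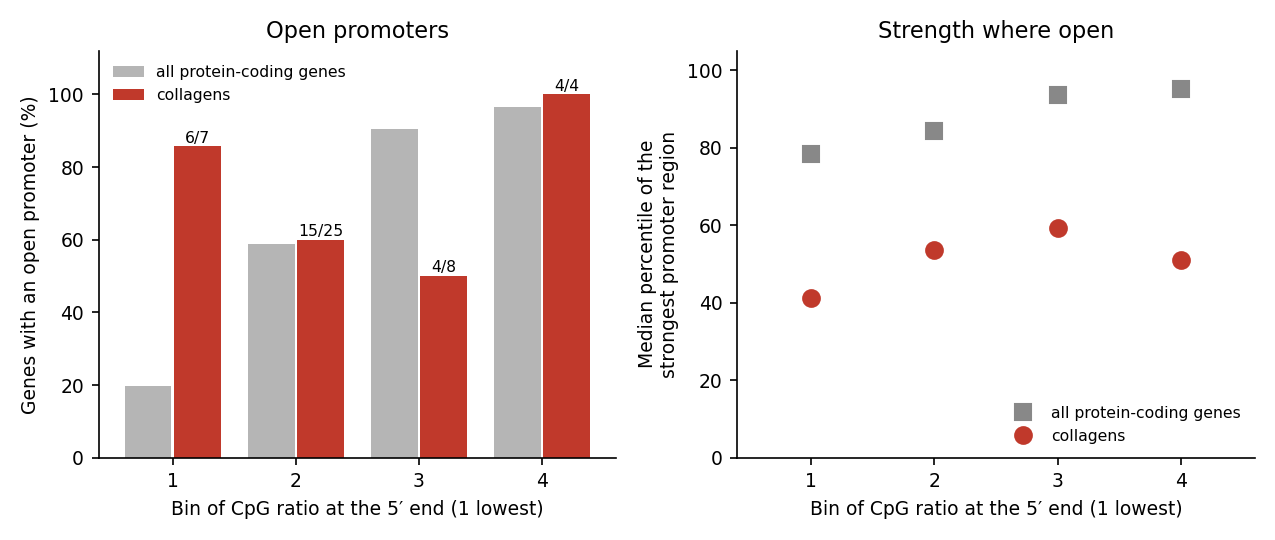
Left, share of genes with an open promoter (y axis, percent) by bin of the CpG ratio at the 5′ end (x axis), with bars for all protein-coding genes and for collagens and the number open of the number of collagens above each. Right, the median percentile of the strongest promoter region where open (y axis), which for collagens lies at 41.1 to 59.2 and for all genes at 78.4 to 95.2. In both panels a region near any annotated start counts.

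Beyond the promoters, collagen loci held many accessible regions. Counted over the gene body and its flanks of 10 kb, called the locus here, the 44 genes held 265 distinct shared regions, of which 198 were distal, lying outside 1 kb of any start of any gene. No collagen locus was without a shared region, whereas 3951 of all 21911 protein-coding loci were. This comparison and the next take no account of length. No collagen was in the shortest of 4 equal bins of locus length, where the median over all genes was 1 region. At least 1 distal region was found in 43 of 44 collagen loci (all but Col6a2), beside 68.1% of all loci. The median was 5 regions per locus, from 1 to 18, beside 4 over all genes. Collagen loci are long, with a median of 134 kb beside 37.4 kb, and per 100 kb they held 4.20 regions beside 7.91. The order of these medians turned once regions within 1 kb of any start were left out, with 3.48 per 100 kb in collagen loci beside 3.24. Pooled over intron sequence, regions outside the gene's own promoter were sparser in collagens. Per 100 kb, intron 1 held 3.19 beside 4.55 and later introns 3.14 beside 3.86.

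**Figure D4:**
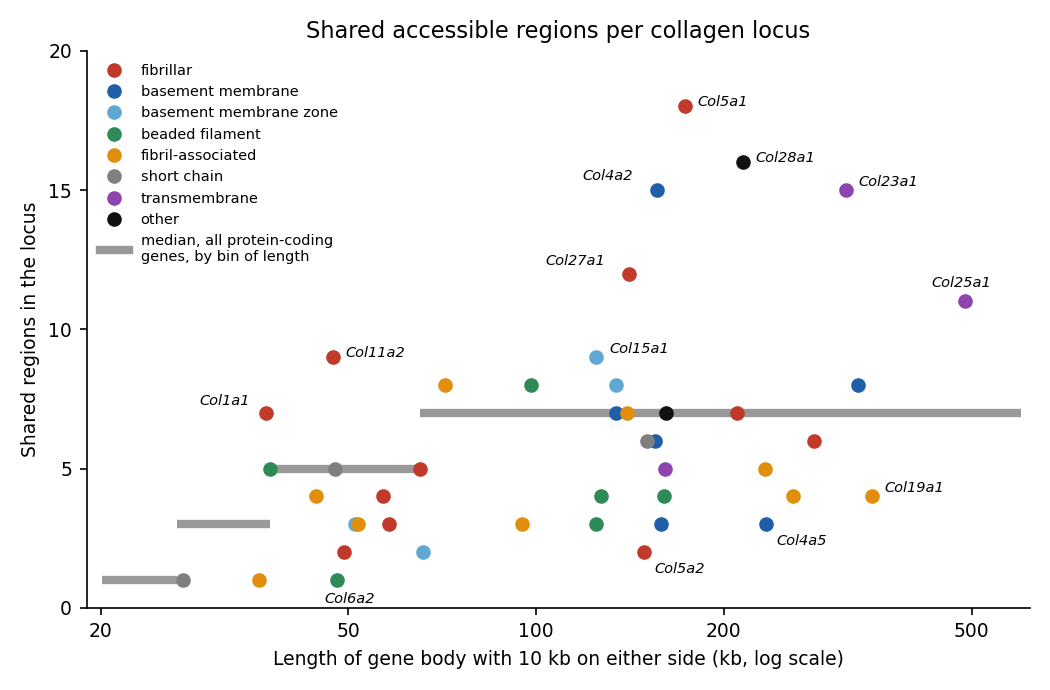
Number of shared regions (y axis) against the length of the locus (x axis, kb, log scale) for the 44 collagen genes, coloured by class, with the median of all protein-coding genes in each of 4 equal bins of locus length as grey bars. Col5a1, Col28a1, Col4a2 and Col23a1 lie highest, with 15 to 18 regions, and most other collagens lie near or below the grey bars.

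Set beside genes of like length, the collagen medians were at or below those of all genes. Loci were divided into 4 equal bins by length. In the longest bin the 30 collagens had a median of 6.5 regions and all genes had 7, and 11 of the 30 were above that median. In the next bin the 10 collagens had 3.5 and all genes 5, and in the second shortest the 4 collagens had 3 and all genes 3. Col5a1 had the most regions (18), followed by Col28a1 (16), Col4a2 (15), Col23a1 (15), Col27a1 (12) and Col25a1 (11). Col11a2 and Col15a1 had 9 each, Col16a1, Col18a1, Col4a6 and Col6a3 had 8, and Col12a1 had 7. Several regions of Col11a2, Col16a1 and Col23a1 lie near starts of neighbours. Upstream of Col11a2, 4 lie within 1 kb of starts of Rxrb, and 3 downstream of Col16a1 within 1 kb of starts of Pef1. Those downstream of Col23a1 are all within 1 kb of starts of Phykpl. Those of Col5a1 were 5 promoter regions, 3 of them also within 1 kb of a 2810430I11Rik start, and 13 distal regions, and those of Col4a2 were 2 promoter, 12 distal and 1 near a start of Gm20100.

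**Figure D5:**
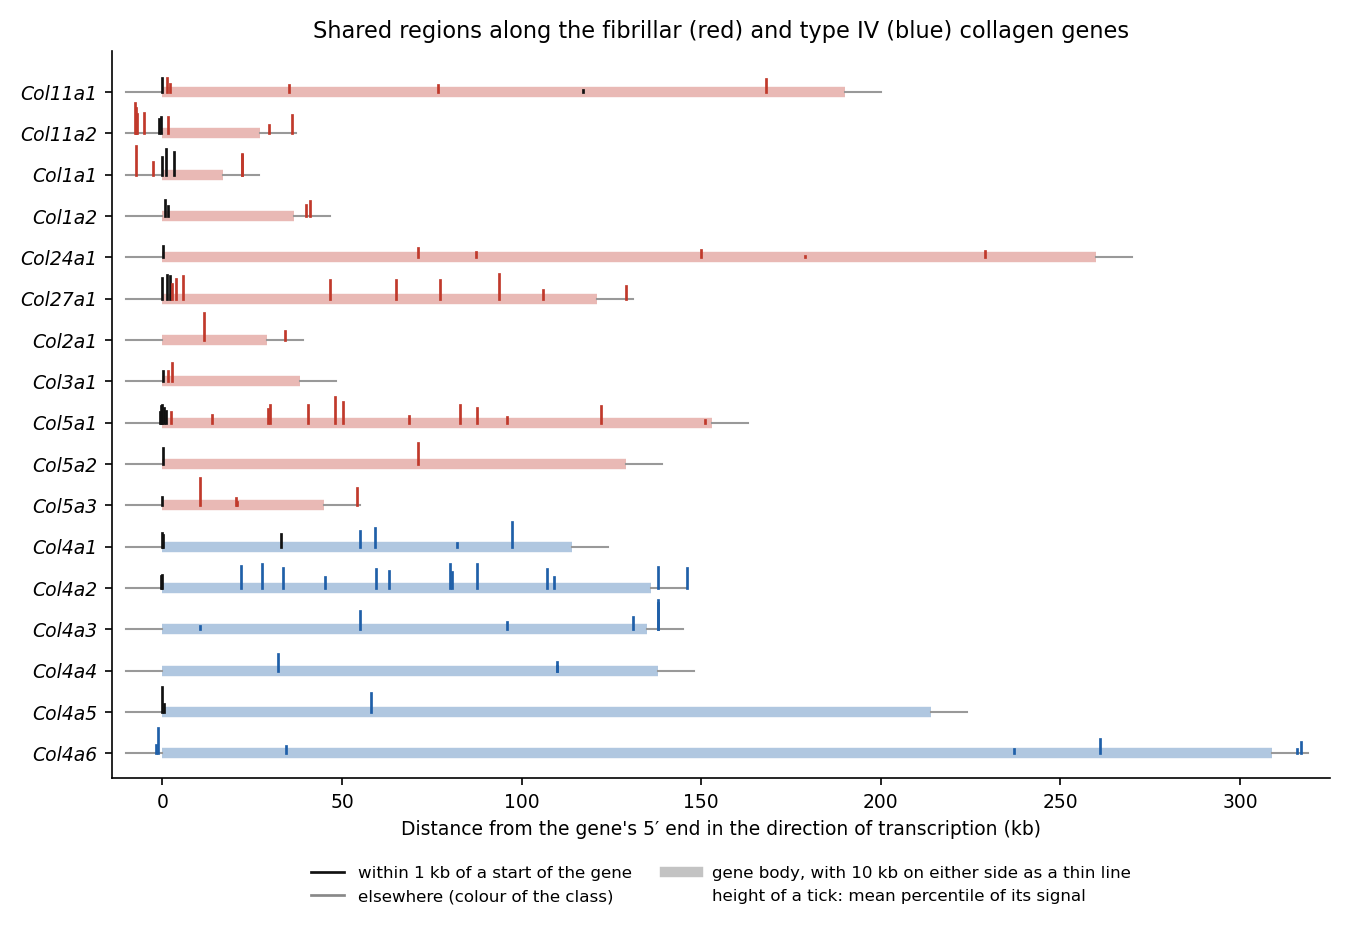
Shared regions along the 11 fibrillar (red) and 6 type IV (blue) genes by distance from the 5′ end in the direction of transcription (x axis, kb), with the gene body as a thick bar and the flanks of 10 kb as a thin line. Tick height is the mean percentile of the region's signal, black ticks lie within 1 kb of a start of the gene, and Col4a2 and Col5a1 carry ticks along the whole body while Col5a2 and Col4a5 carry 1 or 2 beyond the start.

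By place, 50.2% of the regions in collagen loci were in introns after the first, beside 23.8% over all genes, and 17.8% were in promoters, beside 30.8%. Per 100 kb of sequence the later introns of collagens held 3.14 regions and those of all genes 3.86. Intron 1 differed between classes, with 6.45 regions per 100 kb in fibrillar genes and 1.13 in type IV genes, beside 3.19 in all collagens and 4.55 in all genes. These rest on 10 regions in the fibrillar and 2 in the type IV genes, counted outside promoters and outside the exons of every annotated transcript of the gene.

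The strongest distal region of any collagen locus lay 7.22 kb upstream of Col1a1 (chr11:94928916-94929085), with signals of 94 and 102 at percentiles 93.7 and 93.8, above the strongest promoter region of that gene in both replicates. It was followed by intron 5 of Col23a1, with 86 and 96 and 250 kb into the gene, intron 8 of Col5a3 (80 and 93), intron 39 of Col6a3 (82 and 87) and intron 28 of Col15a1 (68 and 98). In Col5a3 and Col6a3 both replicates ranked the intronic region far above the promoter. The promoter of Col5a3 had 25 and 46 and that of Col6a3 had 29 and 45. In Col15a1 replicate 2 did so too, with 34 at the promoter, and replicate 1 had no promoter peak. The distal regions of collagen loci as a whole had median percentiles of 45.3 and 49.4, beside 55.8 and 58.5 for all distal regions. For the 46 promoter regions the medians were 47.2 and 43.4, beside 76.0 and 77.7 for all regions at protein-coding starts. In both replicates the difference in median percentile was larger for promoter regions than for distal ones.

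In collagen loci 74.7% of replicate 1 peaks and 66.1% of replicate 2 peaks had a match in the other replicate, beside 79.4% and 71.3% over all protein-coding loci.

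The strings searched in windows of equal width on the region centres, on both strands, were mostly found in similar shares of collagen regions and of all regions. In collagen promoter regions the GC box was present in 22 of 46 (47.8%, beside 43.1% of all promoter regions), CCAAT in 11 of 46 (23.9%, beside 24.7%), the E-box in 15.2% beside 12.1% and AP-1 in 10.9% beside 6.39%. The TATA box TATAAA was in 3 of 46 (6.52%, beside 4.26%), at Col1a1, Col1a2 and Col11a2. The ETS string CCGGAAG, common at promoters active in most tissues, was in 0 of 46, which allows up to 6.52%, beside 9.14% of all promoter regions. In distal regions AP-1 was in 17.2% beside 17.0%, RUNX (TGTGGT) in 18.2% beside 15.5%, TEAD (GGAATG) in 16.7% beside 13.1%, SOX (ACAATGG or ACAAAGG) in 8.08% beside 8.75%, GATA in 12.1% beside 13.9%, NFI in 10.1% beside 13.8% and FOX in 4.55% beside 6.22%.

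The CTCF core was in 8 of 198 distal collagen regions (4.04%), 1 in each of Col13a1, Col1a2, Col23a1, Col27a1, Col4a2, Col6a1, Col6a6 and Col9a2, beside 1.15% of all distal regions, and in 0 of 46 promoter regions. This string was added after the Col23a1 sequence had been seen, so its count is not an independent finding. SMAD (GTCTAGAC) was in 2 of 198 distal regions (1.01%, beside 0.203% of all distal regions) and the CArG box also in 2 of 198 (1.01%, beside 1.02%). The strings can overlap, since a CArG box can hold CCAAT or TATAAA and NFI can overlap a reversed CCAAT. Base composition was close at promoters, with a median GC content of 59.7% beside 60.2%, and somewhat higher at distal regions, with 50.7% beside 48.3%.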

How the data were processed

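DNase-seq of whole stomach at postnatal day 0 was used as deposited, with peaks and hotspots listed for each of 2 replicates on build mm10, numbered as in the labels. The peak lists hold a deposited signal, a whole number with no scaling by depth stated, which was used only to rank peaks within a list. The hotspots carry a deposited −log10 q value, by their file layout and up to 100, and a deposited score that entered no result. Aligner, caller and read depth were not given in the sources used here.

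Peaks were joined, counted and ranked with Python 3.11.15 and NumPy 2.4.6, with the interval steps tested on simulated data, and figures were drawn with matplotlib 3.10.9. Genes were those of GENCODE M21, with 27 repeated symbols dropped, and sequences came from the GRCm38.p6 genome of RefSeq. Wilson intervals at 95% came from SciPy 1.17.1. The highest and lowest signals were 147 and 2 in replicate 1 and 149 and 3 in replicate 2. No comparison between groups was possible, so no p-value is given. Of 60 assembly, receptor and degradation genes listed, Mmp1a had no match.

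The collagen family and the gene, marker and motif lists were chosen with earlier results of these data known. The CTCF string, the bins of length and CpG ratio, the percentile thresholds and the printed regions were chosen after values had been seen. Named were all fibrillar and type IV genes, the 8 other collagens with the most regions, every collagen without an open promoter, the 5 strongest promoter and distal regions, and of each assembly role 3 open genes in order of symbol and every gene without an open promoter. Other collagens and markers were named after their values had been seen, to complete their class or list.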

Additional observations from a re-analysis of the deposited data

How the results depend on the processing

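No paired analysis was possible because there is 1 group, and with unknown depth it cannot be said which weak sites were missed. With only the stronger 50% of peaks of each replicate, 11 of 44 collagen promoters were open (59.2% of all genes), 3 of the fibrillar and 1 of the type IV ones, and the loci held 113 regions, a median of 2 per locus and 1.90 per 100 kb (all genes 2 and 4.42). With 50 kb on either side the loci held 495 regions and a median of 10 (all genes 10). The median was 4 for the gene body alone (all genes 2), and 4 outside 1 kb of any start (all genes 1). With either replicate left out, open type IV promoters ranged from 3 to 6, regions from 363 to 413, the median per locus from 7 to 8 (all genes 5 to 6) and the density from 5.79 to 7.88 per 100 kb (all genes 9.89 to 11.2). The type IV count of 6 came without replicate 1. Windows of 250 bp and 2.5 kb, 5′ ends or coding starts alone, 50% reciprocal overlap, either replicate alone and hotspots gave 23 to 37 open collagens, 9 to 11 fibrillar ones and 43 to 52 open assembly genes, beside 61.6 to 70.0% of all genes.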
